A study of Mus musculus with 4 samples.

Results

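Guanylate-binding proteins (GBPs) and immunity-related GTPases (IRGs) are the GTP-hydrolysing enzymes that cells make in quantity when they sense interferon. The transcripts of 10 such genes were followed in mouse neutrophils with and without serum response factor (SRF), out of 23284 genes in the authors' deposited table. A gene was taken where its symbol there was that of 1 of 5 GBP genes (Gbp2, Gbp3, Gbp6, Gbp7, Gbp9) or 1 of 5 IRG genes (Igtp, Irgm1, Irgm2, Iigp1, Tgtp1), whatever its values. All 10 were in the table and all 10 had enough reads for the authors' test, and 12 isoform rows of 30073 belonged to them.

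The cells were primary neutrophils from mouse bone marrow, sorted as mature cells by strong Gr1 and 7/4 staining and a high side scatter. There were 2 samples from mice labelled WT and 2 from mice labelled Srf KO, 4 in all, and the title of the series places them in a study of SRF and the migration of neutrophils to inflammation. SRF is a transcription factor that binds a DNA element named the CArG box and is best known for driving genes of the actin cytoskeleton. How Srf was removed, in which cells it was removed, the age and sex of the mice, and whether the samples of a genotype came from separate mice are not given in the sources used here. Expression was deposited as FPKM, sequenced fragments scaled to transcript length and library size, which makes levels comparable between genes of different length. The authors' deposited table holds 1 pooled FPKM value per genotype, so the values of single samples, the spread between them and the read depth are unknown. Each log2 fold is Srf KO over WT. The value after ± is the standard error (SE) implied by the authors' fold and test statistic. A gene is said to have risen or fallen only where the authors' q-value, their p-value adjusted over all tested genes, was at most 0.05.

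Srf, read as a check on the labels, stood at 13.7 FPKM in WT against 0.439 in Srf KO, per the authors' deposited table, a log2 fold of -4.97 ± 0.27. Of 14 tested neutrophil markers 7 fell and 1 rose by the authors' deposited table, against 17.8% called lower and 17.7% higher among all tested genes. The largest falls were those of the chemokine receptor gene Cxcr2 (596 and 201 FPKM in WT and Srf KO, log2 fold -1.57 ± 0.19) and the G-CSF receptor gene Csf3r (687 and 248 FPKM, -1.47 ± 0.22). Both transcripts were still abundant in Srf KO. The marker that rose was the granule gene Mpo (179 and 314 FPKM, 0.81 ± 0.19). The granule and calcium-binding protein genes Ltf, Ngp, S100a8 and S100a9 are listed at 0 in both genotypes, under a status of too many reads, and carry no information, and Ly6g was not matched. Genes of the sex chromosomes also differed: in the authors' deposited table the X-inactivation RNA Xist was at 0.0154 FPKM in WT and 4.92 in Srf KO, and the Y-linked Ddx3y at 13.5 and 4.23. The pools therefore differed in sex-linked transcripts as well as in genotype, and the part of this in the results on GTPase genes was not tested.

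GBPs and IRGs are induced above all by interferon gamma, through the receptor chains Ifngr1 and Ifngr2, the kinases Jak1 and Jak2 and transcription factors such as Irf1, and to a lesser degree by type I interferons. The proteins gather on membranes that enclose intracellular bacteria and parasites, break those membranes open and expose the microbe to autophagy adaptors and inflammasomes. Within the IRG family, Irgm1, Irgm2 and Igtp act as regulators that sit on the cell's own membranes and hold the effector IRGs, such as Iigp1 and Tgtp1, inactive until a foreign vacuole appears.

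The stretches of DNA just upstream of annotated starts of these genes show the elements through which interferon acts. They are printed because such elements stand before members whose transcripts rose and members whose transcripts did not pass the test. RefSeq promoter sequences (GRCm38.p6, the assembly of mm10) matched 7 of the 10 members, and Gbp6, Gbp9 and Iigp1 had no entry. Shown 5′ to 3′ on the strand of the gene are the 120 bases before the RefSeq transcript start, with 2 motifs in capitals: GAS, an element of genes induced by interferon gamma, searched as TTCNNNGAA, which reads the same on both strands, and the core of ISRE, the site of IRF factors, searched as GAAANNGAAA and on the other strand as TTTCNNTTTC.
Gbp7: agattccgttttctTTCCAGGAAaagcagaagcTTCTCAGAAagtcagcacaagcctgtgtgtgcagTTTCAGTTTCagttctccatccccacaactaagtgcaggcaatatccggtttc
Gbp3: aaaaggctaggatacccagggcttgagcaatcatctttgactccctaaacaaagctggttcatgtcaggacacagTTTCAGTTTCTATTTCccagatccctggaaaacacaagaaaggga
Gbp2: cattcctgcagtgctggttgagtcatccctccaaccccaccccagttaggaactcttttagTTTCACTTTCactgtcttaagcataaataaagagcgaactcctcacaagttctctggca
Irgm1: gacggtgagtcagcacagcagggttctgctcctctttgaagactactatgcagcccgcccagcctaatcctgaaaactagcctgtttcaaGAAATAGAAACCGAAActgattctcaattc
Tgtp1: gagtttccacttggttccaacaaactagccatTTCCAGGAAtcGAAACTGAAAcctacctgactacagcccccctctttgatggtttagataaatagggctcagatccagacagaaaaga
Igtp: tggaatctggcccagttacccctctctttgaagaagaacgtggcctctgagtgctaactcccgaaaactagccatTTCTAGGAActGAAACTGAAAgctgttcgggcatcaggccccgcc
Irgm2: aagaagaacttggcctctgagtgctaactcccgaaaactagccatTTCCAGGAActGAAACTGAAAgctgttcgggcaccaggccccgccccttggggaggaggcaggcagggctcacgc

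The stretches lie on GRCm38 at chr3:142530216-142530335 (Gbp7, plus strand), chr3:142559924-142560043 (Gbp3, plus strand), chr3:142620543-142620662 (Gbp2, plus strand), chr11:48871421-48871540 (Irgm1, minus strand), chr11:48992247-48992366 (Tgtp1, minus strand), chr11:58199436-58199555 (Igtp, plus strand) and chr11:58214857-58214976 (Irgm2, plus strand). RefSeq gives Gbp3 another start downstream, whose window holds neither motif. The GENCODE transcripts of Gbp2 (142620602) and Tgtp1 (48992258) begin within the printed stretches. That start of Gbp2 comes before its ISRE match, so by GENCODE the match lies within the transcript. The GENCODE spans of Irgm1 (to 48871683), Tgtp1 (to 48994172) and Irgm2 (from 58199618) take in the whole of their stretches.

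All 7 members held the ISRE core within 250 bases before a start, against 2.98% of 32851 RefSeq windows of that length. GAS was found in 4 of the 7, Gbp7, Tgtp1, Igtp and Irgm2, against 7.02% of windows, and the motifs occurred together in those 4 genes against 0.332% of windows. In Tgtp1, Igtp and Irgm2 the GAS and the ISRE core were 2 bases apart. The stretches of Igtp and Irgm2 shared a run of 38 bases that ends within the GAS match, where they differ by a letter. In Gbp3 and in Irgm1, 2 ISRE matches overlapped each other. The CArG box was found in 0 of the 7 windows and in 1.47% of all windows. A match is a description of the letters and not of binding, and a motif absent from this window says nothing of the factor. Tgtp1, whose transcript rose, and Irgm2, whose transcript did not pass the test, held the same GAS letters and the same ISRE letters. Among the other members with GAS, Gbp7 and Igtp did not pass the test either, while Gbp3 and Irgm1, which rose, held no GAS match.

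Across the 10 members, 5 rose and 0 fell in Srf KO neutrophils. Iigp1, Gbp6 and Tgtp1 rose the most, from levels among the lowest of the members, Gbp3 rose less, and Irgm1 rose least. Of the 12634 genes tested in the authors' deposited table, 17.7% were called higher and 17.8% lower, 35.5% in either direction. The median log2 fold of the members was 0.38, and that of all tested genes was 0.08. Igtp, Irgm2, Gbp2, Gbp7 and Gbp9 did not pass the test, with log2 folds from -0.28 to 0.24.

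Iigp1 encodes an effector IRG that coats parasite vacuoles. It was at 0.327 FPKM in the WT pool against 3.49 in the Srf KO pool, per the authors' deposited table. Its log2 fold was 3.42 ± 0.32, a 10.7-fold rise, with a q-value listed as 0 (the smallest p-value listed above 0 was 2.22e-16). Iigp1 was the lowest of the 10 members in WT and the ninth in Srf KO, and 99.8% of tested genes had a smaller log2 fold.

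Tgtp1, another effector IRG first found as a T cell GTPase, was at 1.73 FPKM in WT against 7.47 in Srf KO, per the authors' deposited table. That is a log2 fold of 2.11 ± 0.26 (q = 2.05e-14 in the authors' deposited table). Tgtp1 moved from the eighth to the sixth place among the members. Its near copy Tgtp2, which is not among the members, was at 1.97 and 8.44 FPKM, per the authors' deposited table, and reads of the copies are hard to tell apart.

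The regulators of the IRG family were the members with the highest levels, and their folds were small. Irgm1, which also guards the survival of blood cells under interferon, was at 20.8 FPKM in WT against 29.9 in Srf KO, per the authors' deposited table. This was a log2 fold of 0.52 ± 0.19 (q = 0.0225 in the authors' deposited table), and it was the regulator that passed the test. Igtp, also called Irgm3, was at 24.1 and 28.4 FPKM, per the authors' deposited table (0.24 ± 0.19, q = 0.347). Irgm2 was at 23.2 FPKM in WT against 19.1 in Srf KO, per the authors' deposited table (-0.28 ± 0.19, q = 0.251). Igtp lay higher in the Srf KO pool and Irgm2 lower, and neither difference passed the test.

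Among the GBPs, Gbp6 and Gbp3 rose. Gbp6, of the chromosome 5 group of GBP genes, was at 0.346 FPKM in WT against 2.34 in Srf KO, per the authors' deposited table. Its log2 fold of 2.76 ± 0.30, or 6.75-fold, had a q-value listed as 0 in the authors' deposited table. Gbp3, a GBP found on parasite vacuoles, was at 3.77 FPKM in WT against 6.88 in Srf KO, per the authors' deposited table, a log2 fold of 0.87 ± 0.23 (q = 0.00126). Gbp6 remained the lowest GBP of the 5 in Srf KO even so.

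The other GBP members had WT levels above that of Gbp3, and their values were close in the 2 genotypes. Gbp2, a prenylated GBP that anchors in membranes and opens bacterial and parasite compartments, was at 19.4 FPKM in WT against 18.8 in Srf KO, per the authors' deposited table (-0.05 ± 0.20, q = 0.88). Gbp7, linked to the oxidative and autophagic killing of bacteria, was at 10.4 and 8.96 FPKM, per the authors' deposited table (-0.22 ± 0.19, q = 0.387). Gbp9 was at 7.22 and 6.17 FPKM, per the authors' deposited table (-0.23 ± 0.21, q = 0.414). Gbp7 and Gbp9 lay lower in the Srf KO pool by about their implied error, and Gbp2 by less than it.

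**Figure D1:**
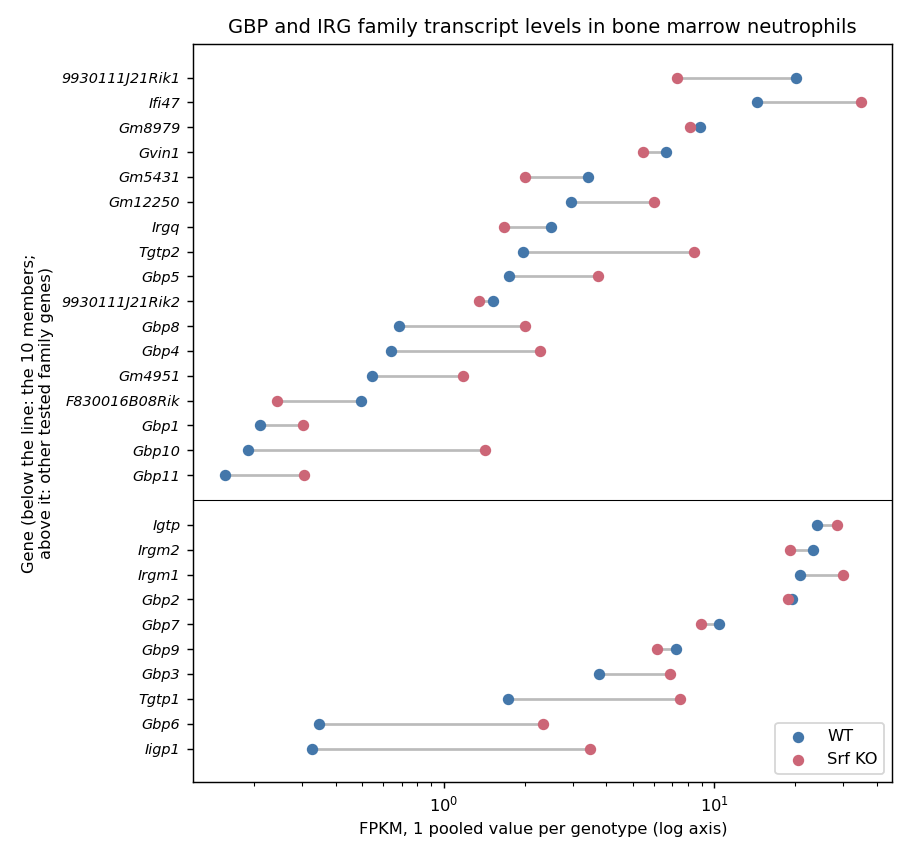
FPKM in the WT pool (blue) and the Srf KO pool (red) on a log axis, for the 10 members below the line and 17 other tested family genes above it, ordered by WT level within each block. The members at the bottom, Iigp1, Gbp6 and Tgtp1, show the widest gaps, while Igtp, Irgm2 and Gbp2 lie between 18.8 and 28.4 FPKM in both genotypes.

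In order of WT level the members ran Igtp, Irgm2, Irgm1, Gbp2, Gbp7, Gbp9, Gbp3, Tgtp1, Gbp6 and Iigp1. In Srf KO the order was Irgm1, Igtp, Irgm2, Gbp2, Gbp7, Tgtp1, Gbp3, Gbp9, Iigp1 and Gbp6. With 1 pooled value per genotype, neighbours in either order could not be set against a spread over samples. The range narrowed: by the authors' deposited table the highest member exceeded the lowest by 73.7-fold in WT (0.327 to 24.1 FPKM) and by 12.8-fold in Srf KO (2.34 to 29.9 FPKM).

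Summed over the 10 members, the level went from 111 to 132 FPKM, per the authors' deposited table, a ratio of 1.18. The 5 IRG members went from 70.1 to 88.4 FPKM in sum and the 5 GBP members from 41.2 to 43.1 FPKM. The 5 members that rose made up 24.2% of the summed level in WT and 38.1% in Srf KO. Irgm1, whose fold was small, made up most of that share. Without it, the 4 others (Gbp3, Tgtp1, Gbp6, Iigp1) were 5.55% of the members' summed level in WT and 15.3% in Srf KO.

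The members below 5 FPKM in WT were those with the largest folds. This level was chosen after the values had been seen. Below it, 4 of 4 members (Gbp3, Tgtp1, Gbp6, Iigp1) rose, and the share called higher among the 5712 tested genes below it was 23.9%. At or above it, 1 of 6 members (Irgm1) rose, and 12.6% of the 6922 tested genes there were called higher. Iigp1, Gbp6 and Tgtp1 had larger log2 folds than 99.8%, 99.5% and 98.8% of all tested genes, Gbp3 than 87.7% and Irgm1 than 74.1%. The members that did not pass the test lay between 31.0% (Irgm2) and 58.7% (Igtp).

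**Figure D2:**
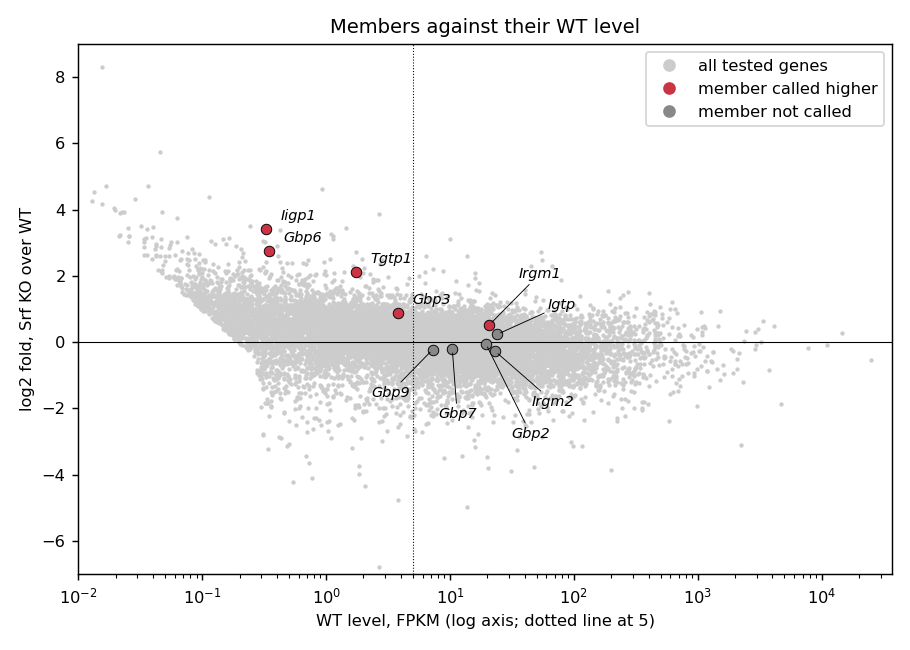
Log2 fold of Srf KO over WT against WT level in FPKM (log axis) for all tested genes with a fold (grey), members that rose (red) and members that did not pass the test (dark grey), with a dotted line at 5 FPKM. Iigp1, Gbp6 and Tgtp1 lie among the largest rises of all tested genes, and the 5 members without a call lie near 0.

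The calls of Irgm1 and Gbp3 were the least secure of the 5. With folds centred on the median of all tested genes, Irgm1 had a log2 fold of 0.45 and a q-value of 0.0569. With the implied errors doubled, an alternative added after the values had been seen, Gbp3 (q = 0.407) and Irgm1 (q = 0.598) were lost and 3 members were called, while the count of all called genes went from 4486 to 397. The same doubling ended 9 of the calls of other family genes, among them Ifi47 (q = 0.225), Tgtp2 (q = 0.318), Gbp8 (q = 0.169) and Gbp5 (q = 0.316).

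Isoform rows placed the members' transcripts but added little on the differences. Of the 12 isoform rows of the members 7 were tested, and 1, that of Irgm1 (q = 0.028), was called higher, against 27.2% of isoform rows called in either direction in the authors' deposited table. Of the start site rows 6 of 11 were tested and of the coding sequence rows 4 of 10, with 1 call each, against 31.2% and 30.2% of their tested rows. The rows of Gbp3, Gbp6 and Tgtp1 carried the same FPKM values as their genes but a status of not tested, so their calls could not be read there. An isoform row without a test was uncommon: of 9756 genes with a single isoform and a gene-level test, 447 (4.58%) had one.

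Gbp7 and Iigp1 were the members with more than 1 isoform. Of the Gbp7 isoforms, NM_001083312 was at 9.31 FPKM in WT against 8.96 in Srf KO, per the authors' deposited table (-0.05 ± 0.26, q = 0.929). The other Gbp7 isoform, NM_145545, was at 1.12 FPKM in WT and is listed at 0 in Srf KO, per the authors' deposited table (q = 0.287). Iigp1 came mainly from NM_021792, at 0.267 and 3.21 FPKM and not tested, while NM_001146275 was at 0.0600 and 0.287 FPKM, per the authors' deposited table (q = 0.638). Both Iigp1 isoforms were higher in the Srf KO pool, and the one with 2 exons held 81.6% of the gene's level in WT and 91.8% in Srf KO.

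The members' gene models differ by family. In GENCODE M21 each of the 5 GBP members has 11 exons, Igtp and Irgm1 have 3, and Irgm2 and Tgtp1 have 2, which is the usual IRG layout of a short leader and a long coding exon. The genes are Gbp2 (ENSMUSG00000028270.12), Gbp3 (ENSMUSG00000028268.14) and Gbp7 (ENSMUSG00000040253.15) on chromosome 3, Gbp6 (ENSMUSG00000104713.4) and Gbp9 (ENSMUSG00000029298.15) on chromosome 5, Irgm1 (ENSMUSG00000046879.7), Tgtp1 (ENSMUSG00000078922.9), Igtp (ENSMUSG00000078853.8) and Irgm2 (ENSMUSG00000069874.7) on chromosome 11, and Iigp1 (ENSMUSG00000054072.12) on chromosome 18.

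Sequence shared between genes makes some of these values uncertain. It can come from a duplicated copy or from annotated genes that overlap, as Igtp and Irgm2 do in GENCODE, and these were not separated. Of the 50-base windows of the Tgtp1 transcript, 91.4% occur in the transcript of another gene, and 89.4% occur in that of Tgtp2. For Gbp6 the share is 90.2%, all of it in the annotated gene Gm43302, with 62.3% in Gbp10. Reads that lie within such windows cannot be given to 1 gene, and the labels do not say how the authors divided them. The rises of Tgtp1 and Tgtp2, and those of Gbp6 and Gbp10, are therefore not separate observations. For the other members the shares were 12.8% (Gbp7), 12.3% (Igtp, with Irgm2), 9.56% (Gbp9), 6.86% (Irgm2), 4.88% (Gbp3), 3.47% (Iigp1), 2.07% (Gbp2) and 0.814% (Irgm1). The rises of Iigp1, Gbp3 and Irgm1 therefore rest mostly on sequence of their own.

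Other genes of the 2 families included rises and, unlike the members, falls. Of 24 listed family genes outside the members, 18 were in the authors' deposited table and 17 were tested, of which 8 rose, 4 fell and 5 did not pass the test, with a median log2 fold of 0.98. Adding the members, 13 of 27 tested family genes rose and 4 fell, against 17.7% and 17.8% of all tested genes. These counts, and those by cluster below, enter Tgtp1 and Tgtp2, and Gbp6 and Gbp10, as separate genes, though their rises are not separate observations.

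The GBP genes that rose were Gbp10 (0.189 and 1.43 FPKM in WT and Srf KO, log2 fold 2.92 ± 0.36), Gbp4 (0.640 and 2.27 FPKM, 1.83 ± 0.27), Gbp8 (0.686 and 2.004 FPKM, 1.55 ± 0.31) and Gbp5 (1.75 and 3.74 FPKM, 1.09 ± 0.26), by the authors' deposited table. Gbp5 is a prenylated GBP known for promoting inflammasome assembly. Gbp1, which GENCODE names Gbp2b, and Gbp11 were low in both genotypes (0.210 and 0.302 FPKM, and 0.156 and 0.306 FPKM) and did not pass the test (0.53 ± 0.44 and 0.97 ± 0.46), per the authors' deposited table. All of these GBP genes, risen or not, had a WT level under 5 FPKM, so that level does not set the risen ones apart here.

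On the IRG side Ifi47, an effector GTPase, rose from 14.5 to 34.8 FPKM (1.27 ± 0.27), per the authors' deposited table and was the highest family gene of Srf KO neutrophils. Tgtp2 (2.10 ± 0.50), Gm4951 (0.546 and 1.18 FPKM, 1.11 ± 0.32) and Gm12250 (2.97 and 6.01 FPKM, 1.02 ± 0.24) rose too, by the authors' deposited table. Falls were seen for 9930111J21Rik1 (20.01 and 7.32 FPKM, -1.45 ± 0.21), F830016B08Rik (-1.03 ± 0.34), Gm5431 (-0.77 ± 0.26) and Irgq (-0.58 ± 0.23), per the authors' deposited table. 9930111J21Rik1 and Gm5431 stand between Irgm1 and Tgtp1 on chromosome 11, so family genes with opposite calls were direct neighbours. On the log2(FPKM + 1) scale the calls of F830016B08Rik (q = 0.697), Gm4951 (q = 0.298), Gm5431 (q = 0.107) and Irgq (q = 0.25), a family gene without the usual GTP-binding residues, were lost.

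No difference passed the test for 9930111J21Rik2 (-0.18 ± 0.85), Gm8979 (-0.12 ± 0.20) or the very large GTPase gene Gvin1 (-0.29 ± 0.31), per the authors' deposited table. The gene row of 9930111J21Rik2 holds its lesser copy, at 1.53 FPKM in WT, while the isoform row NM_173434_1 fell from 10.3 to 4.15 FPKM (-1.31 ± 0.46, q = 0.0191), per the authors' deposited table. Irgc1, an IRG of the testis, was listed at 0.187 and 0.00614 FPKM and was not tested. Tgtp2, Ifi47 and 9930111J21Rik2 are given with 1 shared locus in the authors' deposited table, together with Olfr56 and Olfr1396, and the library kit does not keep the strand, so overlapping reads there cannot be assigned with certainty.

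**Figure D3:**
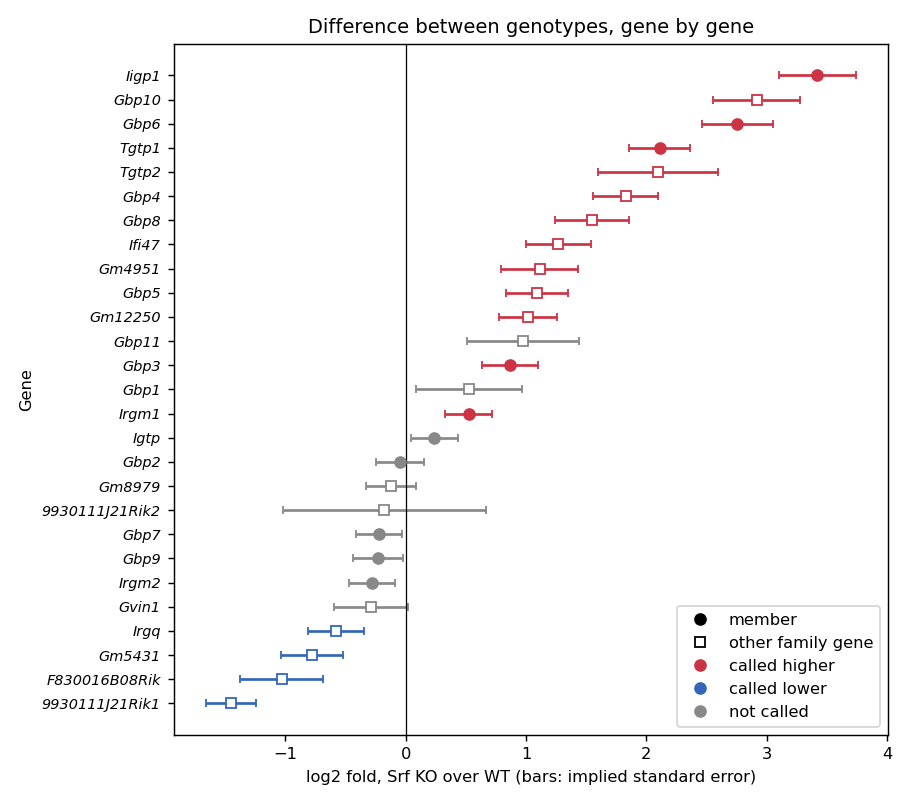
Log2 fold of Srf KO over WT for each of the 27 tested family genes, with the implied standard error as a bar; filled circles are the 10 members, open squares the other genes, red marks genes that rose, blue genes that fell and grey genes without a call. Iigp1 (3.42) is at the top and 9930111J21Rik1 (-1.45) at the bottom.

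The genes lie in 5 clusters, taken as family genes within 1 Mb of each other in the authors' coordinates (mm10). The chromosome 5 cluster (105014153 to 105346472) held Gbp8, Gbp9, Gbp4, Gbp10, Gbp6 and Gbp11, of which 4 rose and 0 fell, with a median log2 fold of 1.69. Gbp9, the member without a rise there, is also the gene of that cluster with the highest WT level. The chromosome 3 cluster (142496934 to 142638008) held Gbp5, Gbp7, Gbp3, Gbp1 and Gbp2, of which 2 rose and 0 fell, with a median of 0.53.

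Irgm1 and Tgtp1 belong to the chromosome 11 cluster at 48865249 to 49135387, in which 4 of 7 family genes rose and 2 fell. Igtp and Irgm2 belong to the one at 58183843 to 58222783, in which Gm12250 rose and neither member did. Iigp1 shares its cluster on chromosome 18 with Gm4951, which rose, and F830016B08Rik, which fell. A member that rose and a member without a call lay in the same cluster on chromosome 3 (Gbp3 beside Gbp2 and Gbp7) and on chromosome 5 (Gbp6 and Gbp9), while on chromosome 11 they lay in separate clusters.

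Around the clusters the 3 nearest tested genes on each side, 30 in all, included 4 that rose (Slc12a2, Isoc1, Ccbl2 and D930016D06Rik) and 2 that fell (Pdlim5 and Lrrc8d), with a median log2 fold of -0.11. Over all tested genes 17.7% were called higher and 17.8% lower. Of 3 other tested genes inside the clusters 0 were called. Pdlim5, which encodes a LIM protein of the actin cytoskeleton and is the nearest tested gene on the Gbp5 side of the chromosome 3 cluster, fell by 1.12 on the log2 scale.

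**Figure D4:**
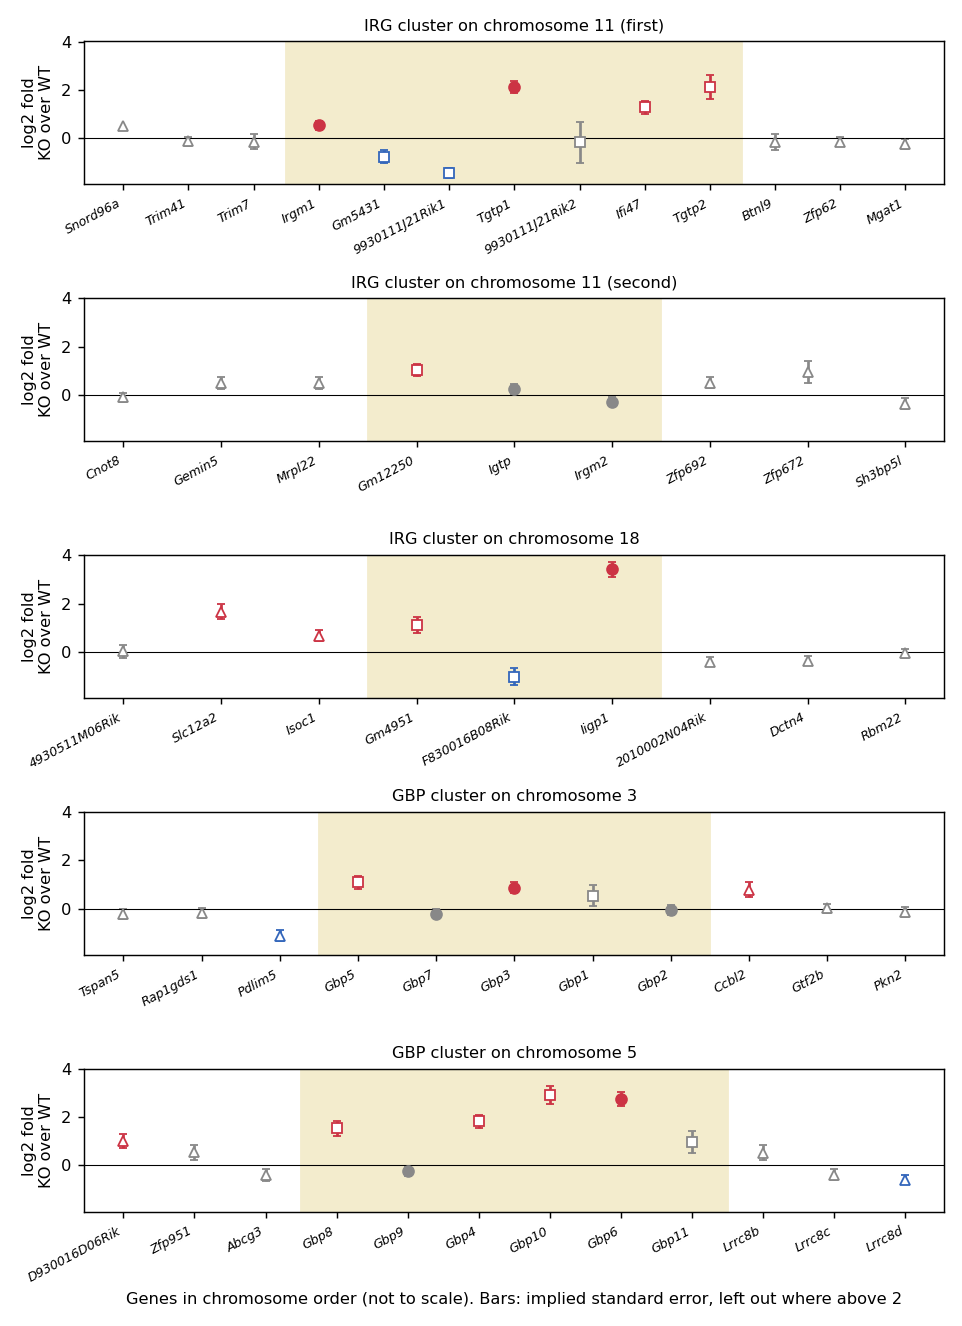
Log2 fold of Srf KO over WT for family genes (shaded) and the 3 nearest tested genes on each side, in chromosome order and not to scale, for the 5 clusters; circles are members, squares other family genes, triangles neighbours, and red, blue and grey mark genes that rose, fell or were not called. Bars are implied standard errors, left out for Snord96a, where the error was 8.11. Rises and falls are mixed within the cluster that holds Irgm1 and Tgtp1.

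Genes that carry the interferon gamma signal moved in both directions. Of 16 tested genes for the ligand, receptor, signalling and feedback, 3 rose and 7 fell by the authors' deposited table, with a median log2 fold of -0.42. The share that rose is near the 17.7% called higher among all tested genes, and the share that fell is above the 17.8% called lower. The receptor chains were near level, with Ifngr1 at 58.1 and 59.3 FPKM (0.03 ± 0.18, q = 0.928) and Ifngr2 at 90.9 and 71.4 FPKM (-0.35 ± 0.18, q = 0.123), per the authors' deposited table. The kinase gene Jak1 fell from 113 to 52.3 FPKM (-1.11 ± 0.19), per the authors' deposited table.

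Irf1, which binds ISRE and is needed for much of GBP induction, was at 95.7 and 68.0 FPKM and did not pass the test (-0.49 ± 0.22, q = 0.0649). Irf8, itself an IRF factor of myeloid cells, rose from 17.8 to 30.7 FPKM (0.79 ± 0.19), per the authors' deposited table. The feedback inhibitors parted, Socs1 rising from 0.851 to 2.46 FPKM (1.53 ± 0.35) and Socs3 falling from 15.8 to 6.01 FPKM (-1.40 ± 0.21), per the authors' deposited table. Socs1 is itself induced by interferon gamma, while Socs3 is the feedback inhibitor of G-CSF signalling.

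The ligand gene Ifng rose from 0.0690 to 0.468 FPKM (2.76 ± 0.96, q = 0.0152), per the authors' deposited table. The call rests on very low levels with a large error. For type I and III interferon, 1 of 10 tested genes rose and 1 fell, with a median of -0.24, against 17.7% and 17.8% of all tested genes. Usp18, an interferon-induced inhibitor of the receptor, rose from 15.95 to 27.0 FPKM (0.76 ± 0.20), by the authors' deposited table. The receptor gene Ifnar1 fell from 20.99 to 12.4 FPKM (-0.76 ± 0.18), by the authors' deposited table. Ifnar2 (-0.24 ± 0.25), Stat2 (0.15 ± 0.19), Irf9 (-0.17 ± 0.20) and Irf7 (0.06 ± 0.20) did not pass the test. Ifnb1 is listed at 0 in WT and 0.0167 FPKM in Srf KO and was not tested.

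More of the other interferon targets rose than fell. Of 31 tested genes known as targets of interferon gamma 17 rose and 1 fell, with a median log2 fold of 0.61, against 17.7% and 17.8% of all tested genes. The largest rises, among genes at 1 FPKM or more in a genotype, were those of the ubiquitin-like gene Ubd (0.242 and 2.77 FPKM, 3.51 ± 0.62), the serpin genes Serpina3g (1.73 and 11.5 FPKM, 2.73 ± 0.28) and Serpina3f (2.65 ± 0.52) and the T cell chemokine gene Cxcl9 (2.40 ± 0.31), per the authors' deposited table. Of 40 tested genes known as targets of type I interferon 19 rose and 0 fell, with a median of 0.38, led by Ifi44 (1.14 and 9.92 FPKM, 3.12 ± 0.29), the lectin-binding gene Lgals3bp (2.0 ± 0.21), the virus-tethering gene Bst2 (1.95 ± 0.22) and Oas1g (1.56 ± 0.21), by the authors' deposited table. In the interferon gamma list 13 genes and in the type I list 21 genes did not pass the test.

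Genes of the machinery with which GBPs and IRGs work were called at shares near those of all tested genes (17.7% higher, 17.8% lower). Of 16 tested genes listed for vacuole targeting and the ubiquitin-like conjugation of autophagy, adaptors among them, 2 rose and 4 fell, with a median of -0.12. Atg7 (51.0 and 21.1 FPKM, -1.27 ± 0.18), Map1lc3b (-0.82 ± 0.18) and Atg3 (-0.74 ± 0.18) fell, and Ube2l6, a conjugating enzyme that is an interferon target itself, rose (0.98 ± 0.19), by the authors' deposited table. Of 5 genes for enzymes that attach the lipid tail of prenylated GBPs such as Gbp2, or process the protein end that carries it, 0 rose and 1, Icmt, fell (-0.62 ± 0.26, q = 0.0425), per the authors' deposited table.

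Of 12 inflammasome and cell death genes that act downstream of GBPs, 1 rose and 5 fell, with a median log2 fold of -0.16. Over all tested genes 17.7% were called higher and 17.8% lower. The sensor gene Nlrp3 fell from 40.9 to 7.09 FPKM (-2.53 ± 0.19), the cytokine gene Il1b from 257 to 54.5 FPKM (-2.24 ± 0.19) and the membrane rupture gene Ninj1 from 54.3 to 19.3 FPKM (-1.49 ± 0.20), by the authors' deposited table. Il18, another inflammasome substrate, rose (0.92 ± 0.29). The pore-forming gene Gsdmd fell by 0.44 on the log2 scale (q = 0.0474), per the authors' deposited table.

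Genes that mark other blood cells were higher in the Srf KO pool too, and these cells can express GBPs and IRGs. In bulk RNA, more cells of a type and more RNA per cell cannot be told apart. Over all tested genes 17.7% were called higher and 17.8% lower. Among those under 5 FPKM in WT, where many of these markers lie, 23.9% were called higher. Of 15 tested T and NK cell markers 14 rose, with a median log2 fold of 1.82, and their summed level went from 31.99 to 77.6 FPKM, by the authors' deposited table. Among them were Cd4 (0.408 and 2.49 FPKM, 2.61 ± 0.31), the NK receptor gene Klrd1 (2.52 ± 0.36) and the granzyme genes Gzmb (2.38 ± 0.39) and Gzma (2.36 ± 0.30). T and NK cells are the textbook source of interferon gamma. Which cells the Ifng transcripts (0.0690 and 0.468 FPKM in WT and Srf KO) came from was not tested.

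Of 16 monocyte and macrophage markers 10 rose and 3 fell (median 0.88, sum 1466 to 1893 FPKM), the risen ones including the adhesion gene Vcam1 (8.54 and 23.7 FPKM, 1.47 ± 0.20), Mrc1 and C1qa, in the authors' deposited table. Most of that sum was Ly6c2 (1144 and 1544 FPKM in WT and Srf KO), which did not pass the test (q = 0.0658). The 3 that fell were the receptor gene Csf1r (58.5 and 27.4 FPKM, -1.09 ± 0.18), Cd68 (64.6 and 33.9 FPKM) and Emr1 (16.8 and 10.4 FPKM, -0.69 ± 0.20), per the authors' deposited table. Of 12 dendritic cell markers 7 rose and 1 fell (median 1.02, sum 79.998 to 187 FPKM), including Ccr9 and Siglech. The dendritic list shares Bst2, Irf8 and H2-Aa with the interferon lists, and these genes all rose and hold most of its sum. In WT and Srf KO they were at 15.8 and 61.1 FPKM (Bst2), 17.8 and 30.7 (Irf8) and 34.2 and 78.4 (H2-Aa), per the authors' deposited table. Of 9 B cell markers 4 rose and 0 fell (median 0.58, sum 124 to 184 FPKM), of 12 erythroid and platelet markers 8 rose and 0 fell (median 1.90, sum 169 to 296 FPKM), and of 7 endothelial and stromal markers 3 rose and 0 fell (median 0.76, sum 9.89 to 16.4 FPKM). Most of the erythroid and platelet sum was Hbb-b2 (128 and 158 FPKM) and Hba-a2 (31.1 and 70.3 FPKM), neither of which passed the test (q = 0.446 and 0.0502). As given above, 17.7% of all tested genes were called higher and 17.8% lower. None of the markers of these 6 cell groups in the table was listed at 0 in either genotype. The part of these cells in the rise of Iigp1, Gbp6, Tgtp1, Gbp3 and Irgm1 was not tested.

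**Figure D5:**
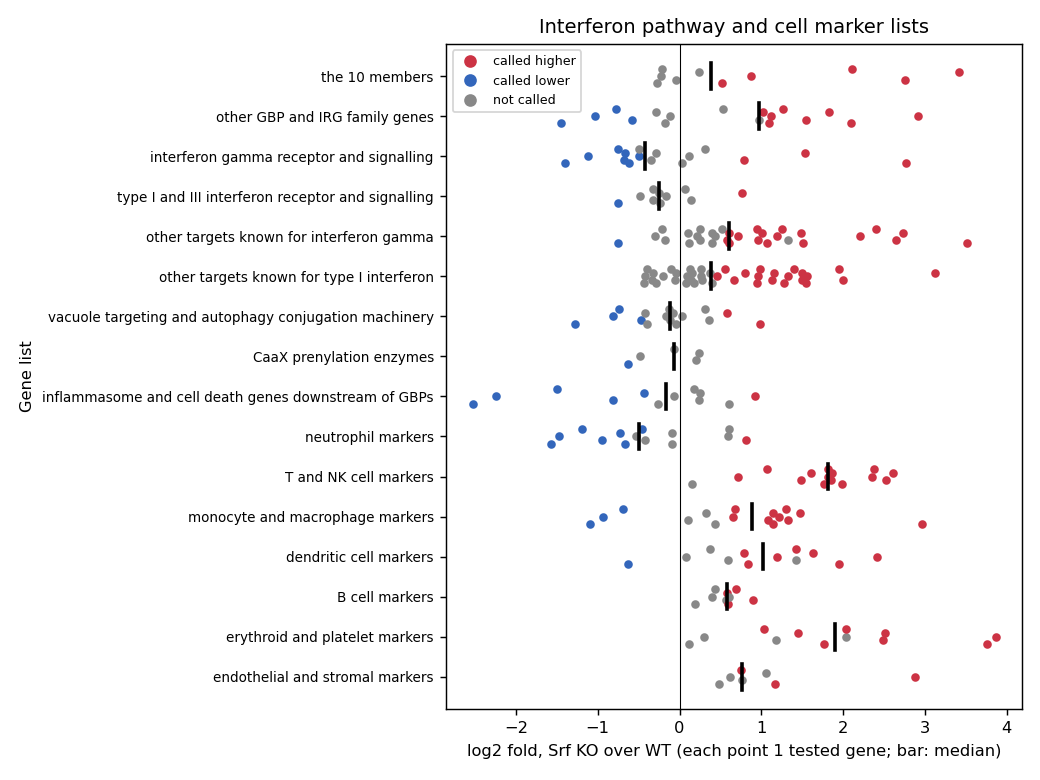
Log2 fold of Srf KO over WT for each tested gene of the members, the other family genes, the interferon pathway lists and the cell marker lists; each point is 1 gene, red where it rose, blue where it fell and grey without a call, and the black bar is the list's median. The medians run from -0.50 for neutrophil markers to 1.90 for erythroid and platelet markers, with the members at 0.38.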

How the data were processed

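RNA was sequenced from 2 WT and 2 Srf KO neutrophil samples, with groups taken from the labelled genotype. The kit, TruSeq RNA v2, does not keep the strand. The submitters' processing notes list TopHat2 2.0.0, Cufflinks 2.0.0, CASAVA 1.8.1 and mm10, without roles or settings. Expression is FPKM as deposited by the authors, 1 value per genotype per the file headers, so depth and the spread between samples are unknown, and p-values may reflect technical spread. The log2 fold was deposited as WT over KO and its sign was reversed, so that positive is higher in Srf KO. The authors also deposited a test statistic, a score. The p-value and q-value are the deposited ones, and the q-values matched a Benjamini-Hochberg adjustment over the 12634 tested genes to within 1.4e-06.

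The test is the authors' own; limma on single samples had been planned and could not be fitted to pooled values. The implied error is the size of the log2 fold over the size of its test statistic. Members, lists and alternatives were chosen with earlier results of these data known. Named genes are the members, listed family genes, Srf, key receptors, factors and ligands, the neighbours of the clusters, and up to 4 called genes per list with the largest folds among those at 1 FPKM or more in a genotype. Gsdmd, Csf1r, Cd68, Emr1, Mpo, Xist, Ddx3y, Ltf, Ngp, S100a8 and S100a9 stand outside this rule and were named after their values were seen. So do H2-Aa, Ly6c2, Hbb-b2 and Hba-a2, also named after their values were seen. The values of some genes that the rule picks are not reported here, though counts over lists include them. Transcript windows of 50 bases were matched over GENCODE M21, and motifs were searched in the 250 bases before RefSeq starts. The script was checked on simulated data. Scripts ran in Python 3.11.15 with pandas 2.3.3 and numpy 2.4.6, and used scipy 1.17.1 for tail probabilities and matplotlib 3.10.9 for plots.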

Additional observations from a re-analysis of the deposited data

How the results depend on the processing

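With other thresholds and scales the members called higher numbered 5 at 1 FPKM or more in a genotype, on the log2(FPKM + 1) and on the log2(FPKM + 0.1) scale, and 4 at a q-value of 0.01 (without Irgm1) and with centred folds, and 0 members were called lower under any alternative run. Requiring at least 2-fold left 3 members (1720 of all genes), and the log2(FPKM + 1) scale left 2759 of all genes. Doubled errors left 3 members and 397 of all genes. A single member (1 each) was called among coding sequence, isoform and start site rows. The members' median log2 fold there was 0.0056, -0.055 and -0.055, the last 2 of opposite sign to the gene table, over 4, 5 and 5 members. Each member was read by its row of highest FPKM and only where that row was tested, which left out Gbp2, Gbp3, Gbp6, Tgtp1 and Iigp1 (and Gbp7 among coding sequences). The lesser Iigp1 isoform, which was tested and had a log2 fold of 2.26, does not enter, and the reversed sign rests on these exclusions. The 3 calls among those rows became 0 at a q-value of 0.01 and 0 at 2-fold. Leaving out Tgtp1, a near copy of Tgtp2, left 4 members and a median of 0.24. The doubled errors, the left-out Tgtp1 and the 2 thresholds on isoform, start site and coding rows were added after seeing the data. No paired analysis was possible because the pooled columns carry no sample or replicate number, and no sample could be left out in turn for the same reason. Depth is unknown, so levels under 1 FPKM, as of Iigp1 and Gbp6 in WT, carry an error that is known only through the authors' statistic.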
